A study of Mus musculus with 6 samples.

Results

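The Avp+ neurons of the suprachiasmatic nuclei (SCN) are the nuclei that the authors annotated as SCN Avp+ neurons, and they number 3574 of the 22796 annotated nuclei. They were found by this annotation alone and assigned to a library by barcode, which placed 3573 of them. The remaining nucleus carries a barcode that occurs in both libraries of its stage. PND10 replicate 1 held 346 and replicate 2 held 1555 of them, and PND30 replicate 1 held 350 and replicate 2 held 1268, whereas 8 came from GD17.5 and 46 from PND2. The 54 nuclei of the early stages are described separately.

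The SCN are the central circadian pacemaker of mammals, seated in the hypothalamus above the optic chiasm. Their neurons are mostly GABAergic and differ in the neuropeptides that they make. Neurons that make arginine vasopressin (AVP) lie mainly in the dorsomedial part, called the shell, and neurons that make vasoactive intestinal peptide (VIP) lie in the ventral part, called the core, which receives input from the retina. AVP is released within the SCN and at targets elsewhere in the hypothalamus, and AVP neurons take part in coupling the cellular clocks.

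Nuclei from micro-dissected SCN were profiled by single-nuclei RNA sequencing (snRNA-seq) in 6 libraries from 4 stages, with 1 library from gestational day (GD) 17.5, 1 from postnatal day (PND) 2, 2 from PND10 and 2 from PND30. All animals were untreated C57BL6/J (WT) mice kept in LD12:12, that is 12 hours of light and 12 hours of dark, and brains were collected early in the light phase. Each stage was a pool of frozen tissue from 10 fetuses or pups, 1 male and 1 female per mother from at least 5 mothers. For PND10 and PND30 the library preparation and sequencing were repeated, and whether the second library came from other animals is not stated, so the spread between these libraries may be technical.

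The count tables list 1 feature per row without a gene name, so the label Avp+ could not be checked against Avp itself, and no gene is named. Counts are unique molecular identifiers (UMIs), each marking 1 captured RNA molecule. The median Avp+ nucleus held 8053 UMIs in PND10 replicate 1, 4383 in PND10 replicate 2, 12128 in PND30 replicate 1 and 3296 in PND30 replicate 2, so that replicates of 1 stage had unlike depth. Among the placed Avp+ nuclei, no barcode was shared between any pair of libraries. Within a stage this is built in, since a barcode found in both libraries was not placed. The PND30 libraries differed from each other in the share of SCN neurons that were Avp+, and values are therefore given for each library.

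Avp+ neurons were a minor cluster before PND10 and the largest SCN neuron cluster in 3 of the 4 later libraries. Of the SCN neurons, they were 0.186% at GD17.5 (95% Clopper-Pearson interval 0.0805% to 0.367%, counting error only) and 0.995% at PND2 (0.729% to 1.33%). Replicate 1 of PND10 had 72.5% (68.3% to 76.5%) and replicate 2 had 63.8% (61.8% to 65.7%). At PND30 the first library had 63.6% (59.5% to 67.7%), close to PND10, and the second had 27.9% (26.6% to 29.3%), the lowest of the 4 later libraries. The means were 68.1% ± 6.2 at PND10 and 45.8% ± 25.2 at PND30 (SD, n = 2 libraries each). Both PND30 shares lay below both PND10 shares, although the first PND30 library nearly equalled the second PND10 library. The difference was -22.4 percentage points, and the exact permutation test (two-sided) gave p = 0.333, the smallest value that 2 against 2 libraries allow, so that no difference could be shown by it. It was -4.51 points without PND30 replicate 2 and -40.2 points without PND30 replicate 1.

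**Figure D1:**
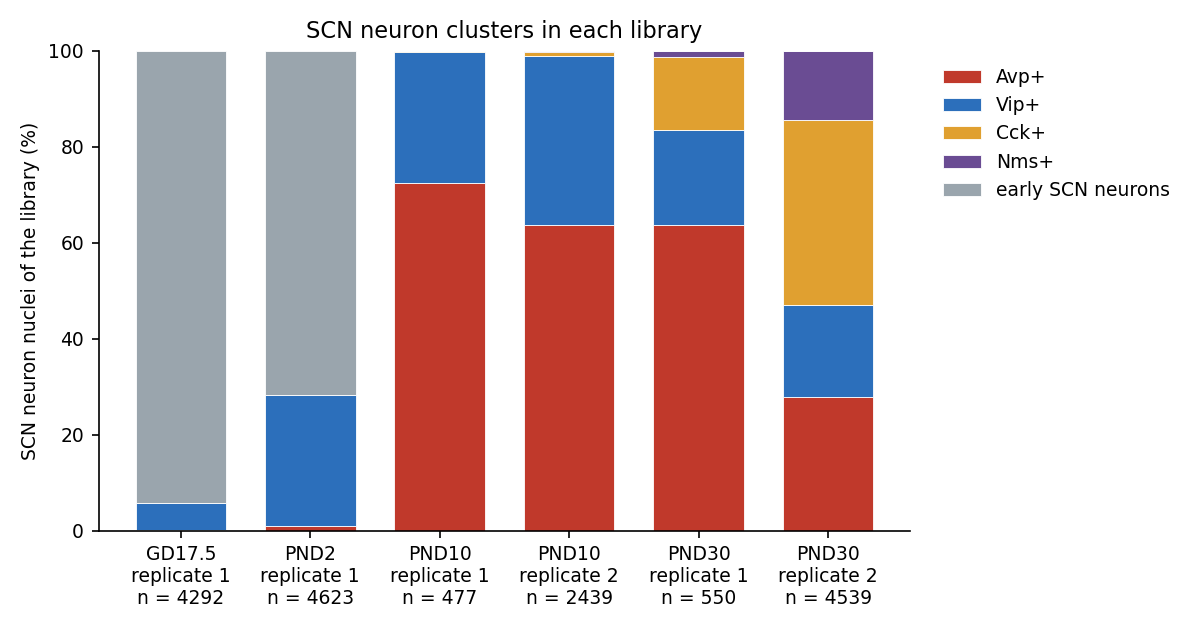
Stacked bars give the percentage of SCN neuron nuclei in each annotated SCN neuron cluster (y axis) for each of the 6 libraries (x axis, with the number of SCN neuron nuclei). Avp+ nuclei fill 72.5% and 63.8% of the PND10 bars and 63.6% and 27.9% of the PND30 bars, and Cck+ and Nms+ nuclei appear mainly in the second PND30 library.

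The second PND30 library differed mainly in its Cck+ and Nms+ neurons, clusters named for the neuropeptides cholecystokinin and neuromedin S. Cck+ nuclei were 15.3% of the SCN neurons in the first PND30 library and 38.4% in the second, and Nms+ nuclei were 1.27% and 14.5%. Counting Avp+, Cck+ and Nms+ nuclei together was not planned beforehand and is a description only. With this count, PND10 had 72.7% and 64.8%, and PND30 had 80.2% and 80.8%. On this count the PND30 libraries nearly coincided, at 80.5% ± 0.44, and lay above PND10 at 68.8% ± 5.6 (SD, n = 2), a difference that was not tested. The only other SCN neurons from PND10 on were Vip+, so this count restates the Vip+ shares of 27.3%, 35.2%, 19.8% and 19.2%. Set against Vip+ nuclei alone, Avp+ nuclei were 72.7%, 64.4%, 76.3% and 59.3% of both clusters in the 4 libraries in the order given above. The stage means of this share were 68.6% ± 5.9 and 67.8% ± 12.0 (SD, n = 2), and the libraries of the stages overlapped. There were 0.0339 Avp+ nuclei per Vip+ nucleus at GD17.5 and 0.0365 at PND2, against 1.81 to 2.66 at PND10 and 1.46 to 3.21 at PND30.

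The gap between the PND30 libraries was present among nuclei of like depth. Among SCN neurons with 6000 to 12000 UMIs, Avp+ nuclei were 73.3% and 65.5% at PND10, 64.6% in the first PND30 library and 30.7% in the second (95% interval 26.4% to 35.2%). Among those with 3000 to 6000 UMIs, the second PND30 library had 28.6%, and the other 3 libraries had between 63.2% and 69.3%. Within each library, Avp+ and Vip+ nuclei were of like depth from PND10 on, with Vip+ medians of 8080.5, 4372, 13026 and 3397 UMIs. At the early stages they were not. The median was 1397 UMIs for Avp+ and 4588 for Vip+ nuclei at GD17.5, and 1487.5 and 4653.5 at PND2.

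**Figure D2:**
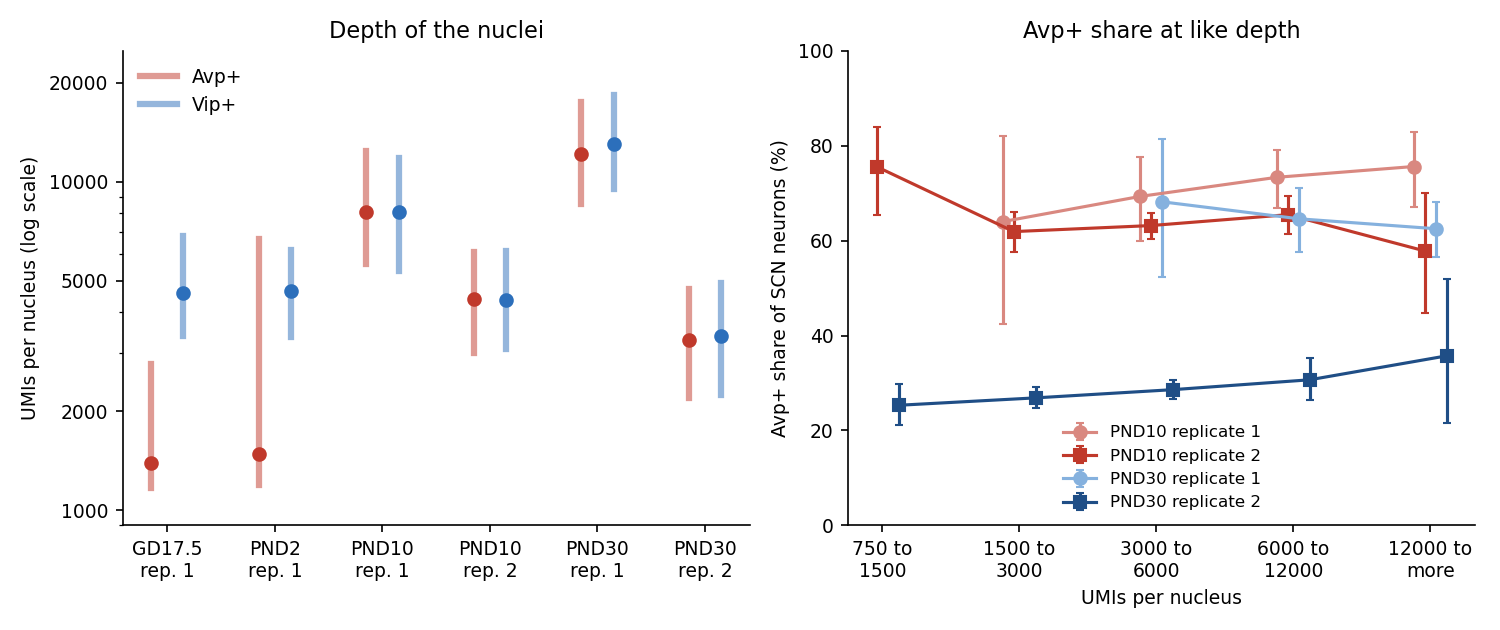
Left, UMIs per nucleus (log scale) for Avp+ and Vip+ nuclei of each library, with points at the median and bars from the lower to the upper quartile. Right, the Avp+ share of SCN neurons in bins of UMIs per nucleus with 95% Clopper-Pearson intervals, for bins of at least 20 nuclei, where the second PND30 library stays between 25.3% and 35.7% and the other libraries are at 57.8% or more.

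To describe which clusters adjoin Avp+, every Avp+ nucleus was assigned to the nearest cluster mean of the other library of its stage. All nuclei had first been thinned to 1500 UMIs. The annotation was made on the same counts, so a high share placed in Avp+ is partly built in. In the first PND10 library, 84.5% of 342 Avp+ nuclei were placed in Avp+ (95% interval 80.2% to 88.2%) and 15.2% in Vip+. Of 1487 in the second, 95.6% were placed in Avp+ and 3.5% in extra-SCN neurons, a cluster that the authors assigned to tissue outside the SCN. Of 1162 nuclei in the second PND30 library, 90.9% were placed in Avp+ and 7.4% in extra-SCN neurons. Of the 348 Avp+ nuclei in the first PND30 library, 174 were placed in Avp+ (95% interval 44.6% to 55.4%), 22.4% in Cck+ and 24.1% in Nms+. The mean over the 4 libraries was 80.2% ± 20.7 (SD, n = 4). The choices were not alike, however, because the second PND30 library was the only reference with an Nms+ mean, and the PND10 references had neither a Cck+ nor an Nms+ mean. With both means taken out of all references, an alternative chosen after the data had been seen, the first PND30 library had 92.5% of its Avp+ nuclei in Avp+ (89.2% to 95.1%) and the second had 92.2%. The mean was then 91.2% ± 4.7 (SD, n = 4), and the first PND30 library lay within the range of the others. In the reverse direction, 88.2% of the 584 Nms+ nuclei and 21.1% of the 1587 Cck+ nuclei of the second PND30 library lay nearest to the Avp+ mean of the first. That library holds only 7 Nms+ nuclei, too few to serve as a reference (minimum 20), so its Nms+ mean could not be chosen.

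Most PND30 Cck+ and Nms+ nuclei lay nearer to the Avp+ than to the Vip+ mean of PND10. The PND10 libraries held too few Cck+ and Nms+ nuclei to serve as references, so that the only neuron clusters to choose from in both were Avp+, Vip+ and extra-SCN neurons. Among these, between 97.2% and 100% of the PND30 Cck+ nuclei lay nearest to Avp+, as did 89.4% and 72.9% of the Nms+ nuclei of the second PND30 library, the rest of which went almost wholly to Vip+. Conversely, the second PND30 library, whose means included Cck+ and Nms+, placed 29.5% and 43.8% of the PND10 Avp+ nuclei in Avp+, 33.6% and 39.9% in Cck+ and 28.7% and 10.7% in Nms+. The first PND30 library placed 80.7% and 70.1% of them in Avp+. Avp+ nuclei of PND30 were placed in the PND10 Avp+ cluster at 92.9% to 96.9%.

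**Figure D3:**
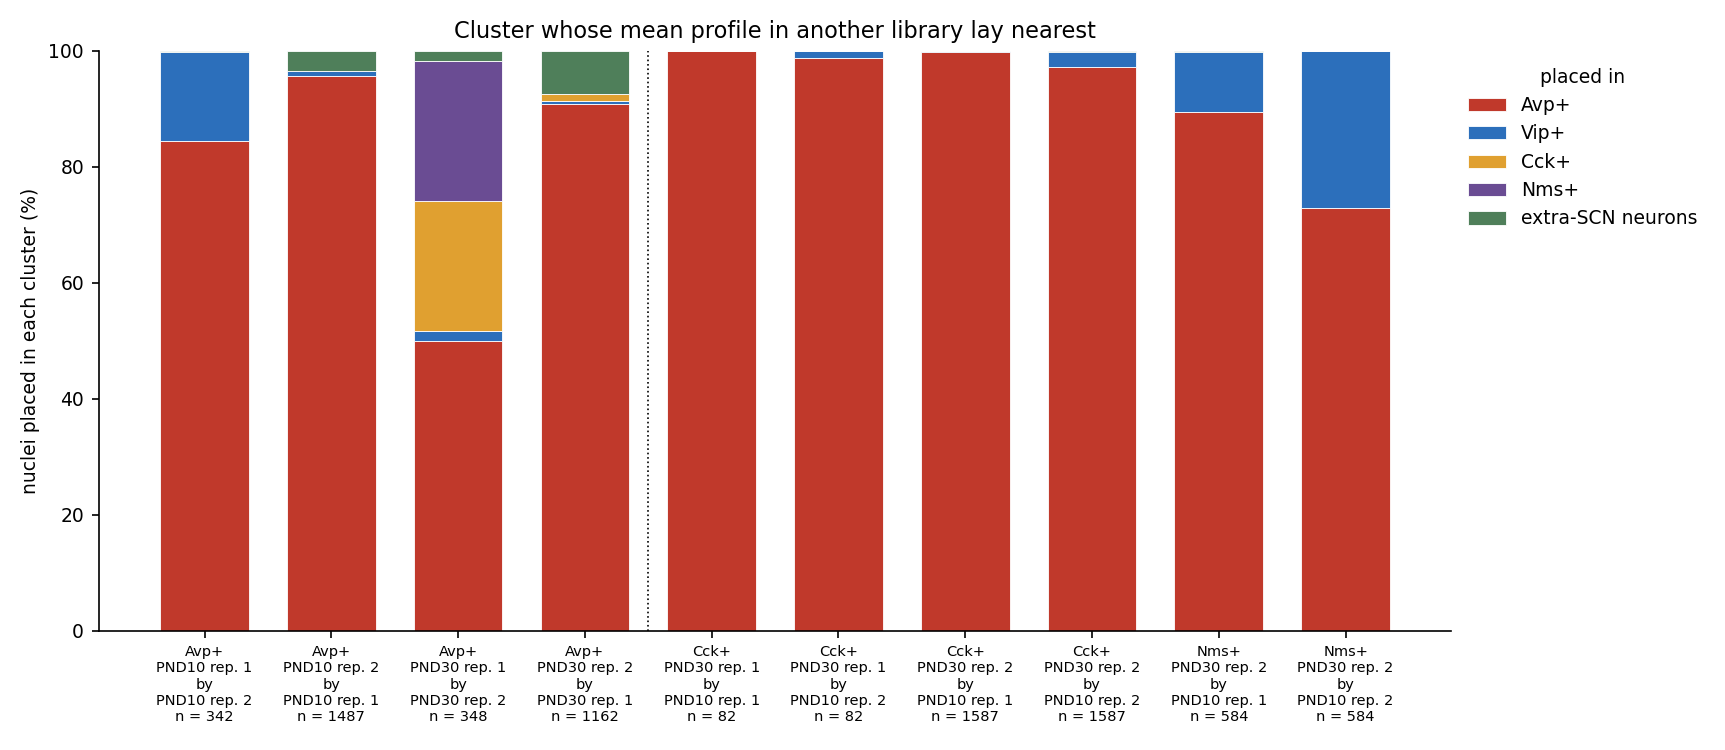
Each bar gives the percentage of nuclei (y axis) whose nearest cluster mean in a reference library was the cluster shown by colour, with the annotated cluster, library, reference and number of nuclei below it. Left of the dotted line, Avp+ nuclei placed by the other library of their stage, with 174 of 348 in Avp+ for the first PND30 library, whose reference alone offered Nms+, against 84.5% to 95.6% for the others, and right of it, PND30 Cck+ and Nms+ nuclei placed by the PND10 libraries, which offered neither cluster, mostly in Avp+.

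Features that mark Avp+ neurons off from Vip+ neurons are given as a description, since the clusters were drawn on these counts. In counts per 1000000 UMIs of a cluster (CPM), 150 of the 6331 features with at least 20 CPM in Avp+ neurons of all 4 PND10 and PND30 libraries, or 2.37%, were at least 2-fold higher than in Vip+ neurons in each of them. The opposite held for 179 of 6044 (2.96%). Summed, the 150 features took 60689 and 65844 CPM in Avp+ neurons of the PND10 libraries and 80762 and 70933 CPM at PND30. In Vip+ neurons they took 18804 and 21577 CPM at PND10 and 15419 and 16381 CPM at PND30. Compared with extra-SCN neurons by the same rule, 150 features were higher, and 72 were higher than in both clusters (1.14%).

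Many features of this set also exceeded Vip+ in other neuron clusters, which is a description, since the set was chosen against the same Vip+ values. Of the 150 features, 102 were at least 2-fold over Vip+ in Cck+ neurons of the first PND30 library and 102 in those of the second, and 83 in Nms+ neurons of the second. The median log2 ratio to Vip+ was 1.63 and 1.53 in Cck+ and 1.19 in Nms+ neurons, against 2.23 and 2.12 in the Avp+ neurons of the same libraries. In extra-SCN neurons, 59 and 45 of the 150 were at least 2-fold over Vip+, with medians of 0.65 and 0.40. Over all 6331 features, the median ratio of Cck+ and Nms+ to Vip+ lay between -0.07 and 0.03 and that of extra-SCN neurons was 0.08 and 0.10. The share of all features at 2-fold was 3.92% to 5.04% in Cck+ and Nms+ neurons and 4.36% and 3.47% in extra-SCN neurons. The summed level of the 150 was 67447 and 64047 CPM in Cck+ neurons and 56378 CPM in Nms+ neurons.

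The feature with the largest ratio, taken as the smallest ratio over the 4 libraries, was at least 17.2-fold higher in Avp+ than in Vip+ neurons. It stood at 1838 and 3362 CPM in Avp+ neurons at PND10 and at 3576 and 2727 CPM at PND30, and at 91.6, 168, 156 and 157 CPM in Vip+ neurons of the same libraries. At least 1 UMI was found in 79.2%, 80.0%, 88.0% and 80.8% of Avp+ nuclei. The share was 40.8%, 40.6%, 68.8% and 37.1% of Vip+ nuclei and 40.7%, 40.9%, 66.3% and 44.1% of mature astrocytes, at median depths of 7326, 3554, 7219.5 and 2201 UMIs per astrocyte. The share in Vip+ nuclei is thus near that found in a non-neuronal cluster. Whether the UMIs in Vip+ nuclei are background or expression was not tested. The upper 5% of Vip+ nuclei held 38.7%, 46.3%, 42.4% and 40.2% of the feature's UMIs in that cluster, with at most 43 UMIs in 1 nucleus. At least 10 UMIs were found in 40.5%, 41.8%, 53.1% and 34.9% of Avp+ nuclei, and in 0.574% to 3.67% of Vip+ nuclei. The feature was uneven among Avp+ nuclei, whose median was 5, 6, 13 and 5 UMIs and whose upper 5% held between 26.6% and 30.3% of its UMIs.

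The same feature was concentrated in few extra-SCN nuclei. Its level in that cluster was 1440 and 485 CPM at PND10 and 577 and 247 CPM at PND30. In the first PND10 library, 21 of 421 extra-SCN nuclei held 97.2% of these UMIs, with up to 1645 UMIs in 1 nucleus against at most 172 in an Avp+ nucleus. In the second, 62 of 1243 held 88.7%, with up to 1612 UMIs against at most 301. At PND30 the concentration was lower, with 79.8% of the UMIs in 5 of 108 nuclei of the first library and 59.0% in 19 of 377 of the second. The highest extra-SCN nucleus held 546 UMIs in the first against 434 in an Avp+ nucleus, and 87 in the second against 98. The share of extra-SCN nuclei with a UMI, 39.0% and 39.2% at PND10, was near that of mature astrocytes, 40.7% and 40.9%.

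The 54 early Avp+ nuclei were shallow and few. At GD17.5, 5 of 8 and at PND2, 24 of 46 had fewer than 1500 UMIs (62.5% and 52.2%), against 1.90% and 1.12% of the early SCN neurons, the cluster that held most SCN neurons at these stages. None of their barcodes occurred in the barcode lists of the other libraries. The 150 features higher in Avp+ than in Vip+ neurons at PND10 and PND30 took 62908 CPM in the GD17.5 nuclei and 58483 CPM at PND2, similar to the later Avp+ neurons. This is a description, since the early nuclei carry the Avp+ label from the same counts, and the GD17.5 value rests on 1483 UMIs. The 150 features took 18661 and 18064 CPM in the early SCN neurons and 39474 and 42676 CPM in the early Vip+ neurons, above the 15419 to 21577 CPM in Vip+ neurons of PND10 and PND30. The leading feature was found in 2 of the 8 and 21 of the 46 nuclei, but 15 of its 18 UMIs at GD17.5 lay in 1 nucleus.

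At these stages the leading feature was also present in part of the Vip+ cluster. At least 1 UMI was found in 20.8% of 236 Vip+ nuclei at GD17.5 and 37.8% of 1262 at PND2, while immature astrocytes/ependymal cells had 1.43% and 12.5% and early SCN neurons 1.38% and 13.3%. All these clusters had median depths of 3895 to 5142 UMIs. The share in Vip+ nuclei was above that in the non-neuronal cluster, and the share in early SCN neurons was near that in the non-neuronal cluster. The level in early SCN neurons was near that of the non-neuronal cluster only at GD17.5, with 0.0168 UMIs per nucleus against 0.0164. At PND2 early SCN neurons had 0.432 UMIs per nucleus against 0.146, and 12 of 3315 held at least 10 UMIs, against 0 of 664 immature astrocytes/ependymal cells. At PND2, 94 Vip+ nuclei held at least 10 UMIs of the feature, more than the 10 Avp+ nuclei that did. The shares of nuclei were 7.45% and 21.7%.

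Placement of the early nuclei was tried with nuclei thinned to 750 UMIs, against the clusters of PND2 without Avp+ and those of 1 PND10 library. Of the 46 PND2 nuclei, 43.5% and 34.8% were placed in the PND10 Avp+ cluster with the first and the second PND10 library, and 54.3% and 43.5% in the PND2 Vip+ cluster. The choices were not alike. At 750 UMIs only the second PND10 library, with 20 Cck+ nuclei, offered a Cck+ mean, which took 6 of the 46 nuclei. The share placed in PND10 Avp+ was 29.2% with either reference for the 24 nuclei under 1500 UMIs (95% interval 12.6% to 51.1%). For the 22 deeper ones it was 59.1% (36.4% to 79.3%) and 40.9% (20.7% to 63.6%), with 3 of them in Cck+ in the second case. These intervals overlap, so they do not show a change with depth. Of the PND2 Vip+ nuclei, 20.5% and 16.2% went to PND10 Avp+, and of the PND2 early SCN neurons 0.271% and 0.121%. These nuclei were themselves part of the PND2 means, whereas the Avp+ nuclei had no PND2 mean of their own. Lower shares than those of the Avp+ nuclei are therefore partly built in. With 1 library at each early stage no test was made.

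The measured spread of Avp+ nuclei of 1 library was about that of its Vip+ nuclei. This is a description, since the clusters were drawn on these counts. No allowance was made for the noise of drawing UMIs, which enters both spreads. At 109 nuclei of 1500 UMIs per cluster and library, the mean squared distance to the cluster mean in Avp+ nuclei was 0.957 and 0.941 times that in Vip+ nuclei at PND10 and 1.05 and 0.982 times at PND30 (mean 0.983 ± 0.049, SD, n = 4). At the same depth, the median Avp+ nucleus had 1021.5 and 1006 genes detected at PND10 and 990.5 and 997 at PND30. Both PND30 values were lower, by 20 genes on average, but the test cannot separate 2 against 2 libraries (exact permutation test, two-sided, p = 0.333).

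Avp+ nuclei of the stages were partly mixed. For each nucleus, the 20 nearest neighbours were sought in the other 3 libraries of the same cluster, of which 33.3% would come from each library if all were mixed. The other library of the stage supplied 49.6% and 40.6% at PND10 and 32.3% and 42.0% at PND30, a mean of 41.1% ± 7.1 (SD, n = 4). In Vip+ nuclei it supplied 47.6%, 48.1%, 54.3% and 48.2% (49.6% ± 3.2). The difference between the clusters was not tested, and the number of nuclei was 342 per library for Avp+ and 109 for Vip+. The first PND30 library was the lowest, with its Avp+ neighbours divided almost equally among the other 3 libraries. Of the 2 libraries of the other stage, the one with the same replicate number supplied 35.6% ± 5.4 of Avp+ neighbours and the one with the other number 23.3% ± 10.1 (SD, n = 4). It supplied 37.7% against 12.7% for PND10 replicate 1 and 41.4% against 16.7% for PND30 replicate 2, and about equal parts for the other libraries. In Vip+ nuclei the means were 25.5% and 24.9%.

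Between PND10 and PND30, few features of Avp+ neurons passed the test. UMIs were summed per library, and edgeR's quasi-likelihood test with Benjamini-Hochberg adjustment called 13 of 14610 features at an adjusted p under 0.05, or 0.089%, with 5 higher (0.0342%) and 8 lower (0.0548%) at PND30. An unadjusted p under 0.05 was found for 1998 features. Since the libraries of a stage may come from the same animals, these p-values may measure spread between preparations and not between animals. The 5 features rose by up to 2.28 (median 1.83) on the log2 scale, and the 8 had log2 changes of -3.17 to -1.35. The median log2 change over all features was 0.00, and 854 features (5.85%) changed by at least 1 in either direction. The number of calls rests on single libraries. With PND10 replicate 1 left out it was 1, and with PND10 replicate 2 left out it was 0 (1362 at an unadjusted p under 0.05). Leaving out PND30 replicate 1 gave 159 and leaving out PND30 replicate 2 gave 111. DESeq2 called 212 features.

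**Figure D4:**
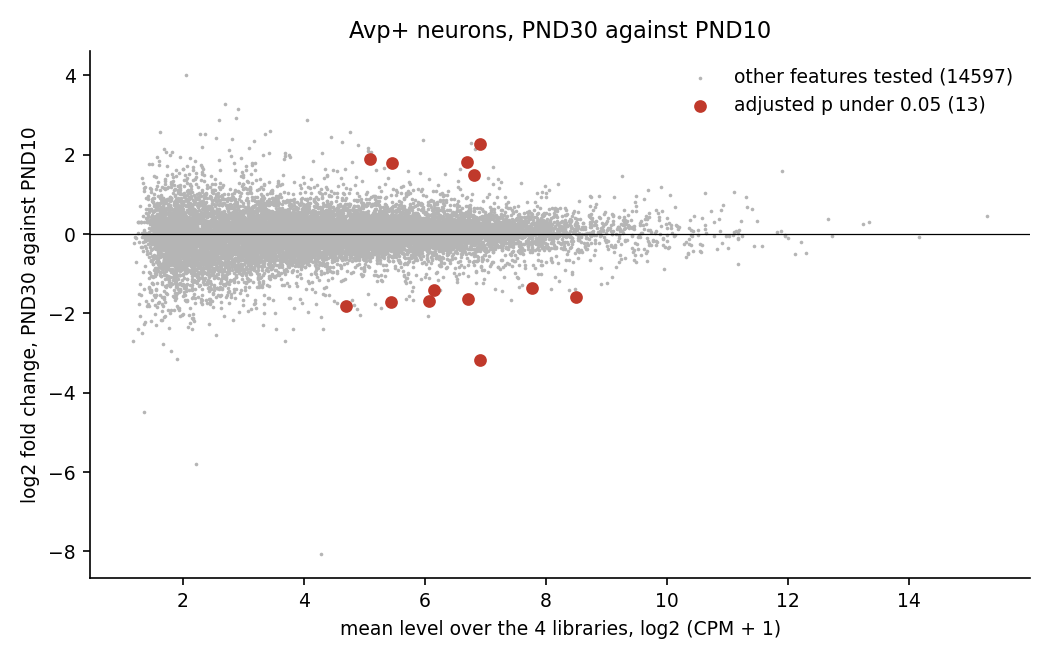
Each point is 1 of the 14610 features tested in Avp+ neurons, with its mean level over the 4 PND10 and PND30 libraries (x axis, log2 of CPM + 1) and its log2 fold change, PND30 against PND10 (y axis). The 13 features with an adjusted p under 0.05 are drawn in red, 5 above 0 and 8 below it.

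Vip+ neurons, tested in the same way, gave 826 of 12484 features (6.62%), with 343 higher (2.75%) and 483 lower (3.87%). In edgeR, 2570 Vip+ features had an unadjusted p under 0.05, against 1998 of 14610 in Avp+ neurons. DESeq2 called 395 in Vip+ and 212 in Avp+ neurons. The clusters were thus much closer by these counts than by edgeR's adjusted p. Extra-SCN neurons gave 1 of 13834 (0.00723%), with 2117 at an unadjusted p under 0.05 and 243 called by DESeq2. Without PND10 replicate 1 or replicate 2 the Vip+ count was 0 and 10, and the extra-SCN count was 788 and 1062. At an unadjusted p under 0.05 there were 1673 Vip+ features where 0 were called. The biological coefficient of variation between the libraries of a stage, as edgeR estimated it over all features, was 0.188 in Avp+, 0.123 in Vip+ and 0.207 in extra-SCN neurons. With only the Avp+ nuclei that the other library of the stage also placed in Avp+, it was 0.161. The count was then 188 of 13442 and included all 13 features, an alternative that was chosen after the data had been seen. This alternative keeps nuclei that resemble the other library of their own stage, so lower variation within a stage is partly built in. It is therefore no independent support for the 13 calls. With Avp+, Cck+ and Nms+ nuclei summed together, also chosen later, the count was 29 and included 9 of the 13.

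The 8 features that fell in Avp+ neurons also fell in Vip+ neurons, where 8 of 8 passed with a median log2 change of -1.72. Of all features tested in Vip+ neurons, 3.87% were called lower. In extra-SCN neurons their median was -1.65 and 0 of 8 passed, in a test that called only 1 of 13834 features (0.00723%). The median over all features was 0.01 in Vip+ and -0.01 in extra-SCN neurons. The feature with the smallest p, at matrix row 17559, had 188 and 246 CPM in Avp+ neurons at PND10 and 24.1 and 22.3 CPM at PND30 (log2 change -3.17, SE 0.193, edgeR adjusted p = 0.0233). In Vip+ neurons it had 163 and 235 CPM at PND10 and 14.9 and 23.1 CPM at PND30, and at PND2 it stood at 338 to 461 CPM in Avp+, Vip+ and early SCN neurons. The next, at matrix row 10228, had 169 and 149 CPM at PND10 and 51.3 and 47.4 CPM at PND30 in Avp+ neurons (log2 change -1.63, SE 0.152, edgeR adjusted p = 0.0477). It was at 511 CPM in the PND2 Avp+ nuclei and between 360 and 470 CPM in the early SCN and Vip+ neurons of GD17.5 and PND2. Both features thus had lower levels at each later stage from PND2 on, in Avp+ and in Vip+ neurons. Their levels were also lower at PND30 outside the SCN neurons. Mature astrocytes had 1203 and 1699 CPM at PND10 and 161 and 356 CPM at PND30 for row 17559, and 117 and 123 CPM against 52.7 and 46.1 CPM for row 10228. Both were likewise lower in extra-SCN neurons, NG2 cells/OPCs and mature oligodendrocytes of each PND30 library than in those of each PND10 library, at PND30 on as few as 3 UMIs. These levels were not tested in the non-neuronal clusters.

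Of the 5 features that rose, 1 also passed in Vip+ neurons, where the median log2 change of the 5 was 0.21. Of all features tested in Vip+ neurons, 2.75% were called higher. In extra-SCN neurons 0 of the 4 that could be tested passed, with a median of 0.70, in a test that called 0 of 13834 features higher. The feature at matrix row 28353 had 39.5 and 44.7 CPM in Avp+ neurons at PND10 and 168 and 227 CPM at PND30 (log2 change 2.28, SE 0.183, edgeR adjusted p = 0.0466). Vip+ neurons had 39.6 and 34.4 CPM at PND10 and 43.5 and 42.6 CPM at PND30. Among the other neuron clusters of PND30 it stood at 175 CPM in Nms+ neurons of the second library, 27.9 and 30.7 CPM in Cck+ and 71.6 and 52.2 CPM in extra-SCN neurons. Microglia had 236 CPM in the first PND30 library, on 15 UMIs in 8 nuclei, and 16.4 CPM in the second, on 1 UMI. Mature astrocytes, NG2 cells/OPCs and mature oligodendrocytes of PND30 had 32.5 to 71.1 CPM. Immature astrocytes/ependymal cells had 146 CPM in the first PND10 library. The feature at matrix row 26869 had 48.6 and 44.5 CPM in Avp+ neurons at PND10 and 147 and 171 CPM at PND30 (log2 change 1.83, SE 0.148, edgeR adjusted p = 0.0466). It is the one that also rose in Vip+ neurons (edgeR adjusted p = 0.0196). These 4 features kept their direction under all 12 alternatives, and lost the call without PND10 replicate 2. The features at rows 28353, 26869 and 10228 lost it without PND10 replicate 1 as well.

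**Figure D5:**
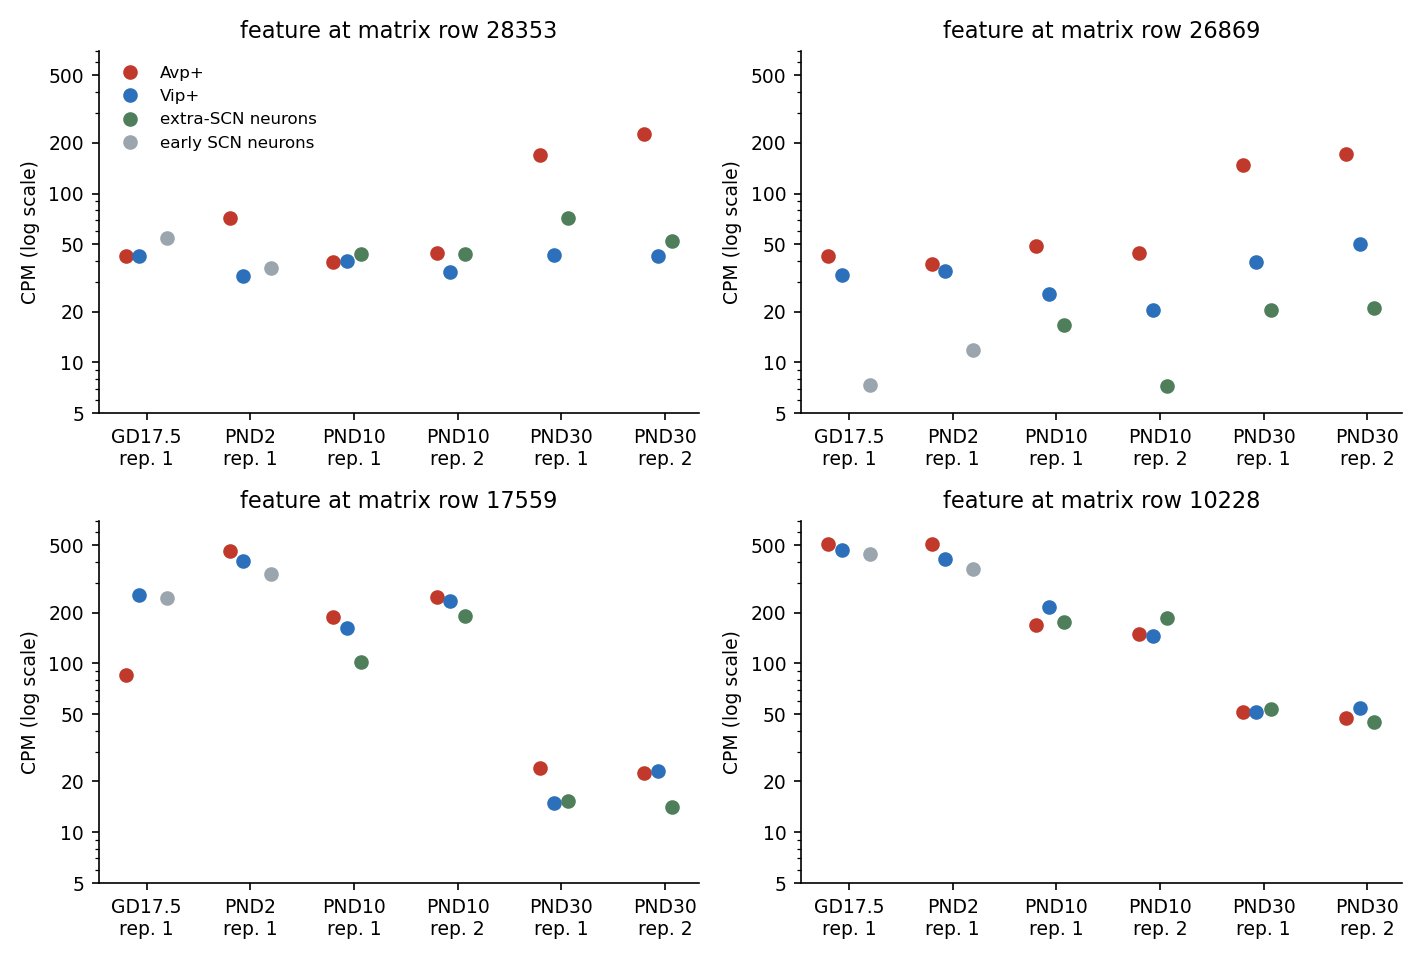
Levels in CPM (log scale) of the 2 features that rose (upper panels) and the 2 that fell (lower panels) with the smallest p in Avp+ neurons, 1 point per cluster and library. The GD17.5 Avp+ points rest on 8 nuclei and 1, 1, 2 and 12 UMIs, and in the lower panels the PND30 points lie below the PND10 points in Avp+, Vip+ and extra-SCN neurons, whereas at row 28353 the Avp+ points rise from 39.5 and 44.7 to 168 and 227 CPM.

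The change from PND10 to PND30 differed between Avp+ and Vip+ neurons for 40 of 14691 features (0.272%) at an adjusted p under 0.05, tested in edgeR as the interaction of cluster and stage with the library as a block. The clusters were drawn on the same counts, which may limit the changes that can be seen within 1 cluster. The difference was more positive in Avp+ neurons for 25 features (0.17%), with median log2 changes of 0.66 in Avp+ and -1.18 in Vip+ neurons. It was more negative in Avp+ neurons for 15 (0.102%), with medians of -0.84 in Avp+ and 0.42 in Vip+ neurons. The changes had opposite signs in 16 of the 25 and in 14 of the 15 features. The larger change was in Vip+ neurons for 18 of the 25 and in Avp+ neurons for 10 of the 15. Of the 4 features named above, row 28353 was among the 40, with a difference of 2.04 (SE 0.214, edgeR adjusted p = 0.00346). Leaving out replicate 1 or 2 of PND10 gave counts of 1 and 20, leaving out those of PND30 gave 283 and 249, and DESeq2 called 21. Against extra-SCN neurons, edgeR called 0 of 15813 features and DESeq2 called 34, with 1235 at an unadjusted p under 0.05 in edgeR.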

How the data were processed

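Per the labels and their processing notes, the authors made 10x 3' v3.1 libraries, processed them with Cell Ranger 5.0.1 and Seurat 4 and used mm10. They deposited raw UMI counts per feature and barcode and an annotation of the nuclei left after their quality limits and removal of doublets by score. The members, lists and rules for named features were chosen with earlier results of these data known. Nuclei were placed in libraries by barcode, and 6 of all nuclei could not be placed. For placement, spread and neighbours, 1500 UMIs were drawn per nucleus, log-normalized (scale 10000) and projected on 30 principal components of the 2000 most variable features. Counts were summed per library and cluster (1211842 to 8938677 UMIs) and tested with edgeR 4.0.16 (TMM, filterByExpr) in R 4.3.3, with DESeq2 1.42.0 as an alternative. At most 2 features per direction, those with the smallest p, were named. In data simulated for Avp+ neurons, 86.5% of 200 features changed by 2 on the log2 scale were called among 14610, with 7 false calls. For the differences of Avp+ from Vip+ and from extra-SCN neurons, 76% and 70% were called, with 11 and 3 false calls. Simulated features of like level had the same spread, so recovery in the real data was not measured. Python 3.11.15, numpy 2.4.6 and scipy 1.17.1 were used elsewhere.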

Additional observations from a re-analysis of the deposited data

Results flagged for a closer look

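The change between PND10 and PND30 differed between Avp+ and Vip+ neurons for 40 of 14691 features (0.272%), by the edgeR test of the interaction itself. DESeq2 called 21, and the count depended strongly on which libraries were used. The feature at matrix row 28353 was 1 of them, with log2 changes of 2.28 in Avp+ and 0.21 in Vip+ neurons and a difference of 2.04.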

How the results depend on the processing

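The Avp+ share of SCN neurons differed by -22.4 points between PND10 and PND30, but by 5.09 points as a share of all nuclei and by -0.79 points as a share of Avp+ and Vip+ nuclei, and by -21.9 points in nuclei with at least 1500 or 3000 UMIs. Leaving out 1 library each gave -40.2 to -4.51 points. Placement, spread and neighbours moved by less than 1 SD over the libraries under the alternatives run, although with no Cck+ or Nms+ mean in the references the first PND30 library went from 174 of 348 Avp+ nuclei placed in Avp+ to 322. The genes detected differed by -39 at 3000 UMIs and by 152 without thinning, and by -27.75 to -12.25 without 1 library. A minimum of 4-fold left 30 features higher in Avp+ than in Vip+ neurons, and a minimum of 100 CPM left 58. Calls in Avp+ neurons were 212 with DESeq2, 64 without a filter on low counts, 25 with equal numbers of nuclei and 28 after thinning to 1500 UMIs. They were 29 with Cck+ and Nms+ nuclei added and 188 with nuclei also placed in Avp+, both chosen after seeing the data, and 0 to 159 without 1 library. In Vip+ neurons they were 395 with DESeq2, 433 with equal nuclei, 286 after thinning and 0 to 1151 without 1 library. In extra-SCN neurons they were 243 with DESeq2, 1100 without a filter, 110 with equal nuclei, 10 after thinning and 0 to 1062 without 1 library. The difference between Avp+ and Vip+ gave 21 with DESeq2, 357 without a filter and 1 to 283 without 1 library. That between Avp+ and extra-SCN neurons gave 34 with DESeq2, 445 without a filter and 0 to 609 without 1 library. The cause was not tested.

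With the replicate number as a block, calls were 678 in Avp+ neurons (348 higher and 330 lower, all 13 included), 1390 in Vip+ and 0 in extra-SCN neurons, where 1966 had an unadjusted p under 0.05, and 406 and 85 for the differences. The deviations of same-numbered libraries correlated at 0.27, 0.08 and -0.02 in the 3 clusters. Avp+ neighbours came more often from the same-numbered library of the other stage (35.6% against 23.3%), which is a hint from the data and not from the design. With only 2 pairs, the numbers are not shown to pair the libraries.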
